A study of Mus musculus with 74 samples.

Results

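The genes described here are 45 cell cycle genes of the mouse, taken as a list by name from a table of RNA-seq read counts for 24015 gene symbols, with all 45 present in the table and all 45 kept by the filter on low counts. The list holds 3 G1 cyclins, 3 genes of the G1/S step, 9 genes of replication licensing, 4 of the replication fork and nucleotide supply, 5 mitotic cyclin and Cdk1 genes, 6 mitotic kinase and checkpoint genes, 6 of the kinetochore and spindle, 2 of the mitotic chromosome, 4 transcription factors and 3 inhibitors of cyclin-dependent kinases (CDKs). They were followed over 31 RNA libraries of gut epithelium in 15 groups, with 2 libraries in each group but one.

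WT embryos were of the CD1 strain, with no allele or agent in the labels. Their forestomach (FS, the squamous part of the mouse stomach), hindstomach (HS, the glandular part) and small intestine (SI) were sampled at E12, E14 and E16, and the small intestine also at E18. Libraries labelled as knockout for Cdx2, a homeodomain factor of the intestinal epithelium, came from Cdx2f/f small intestine on a mixed B6;129 background. One group of 3 libraries had deletion at E10 by Shh-Cre, expressed in the early gut endoderm, with sampling at E16 and no tamoxifen. Villin-Cre, which is active in intestinal epithelium, was used for deletion at E13 (sampled at E16) and at E15 (sampled at E18), each after 5 mg of tamoxifen by gavage and with 2 libraries. Adult ileum villi came from Cdx2f/f;Villin-Cre mice given 1 mg of tamoxifen on 5 days and from Cdx2f/f mice without Cre given oil, with 2 libraries each. All knockout groups and the adult WT group thus carried the floxed Cdx2 allele, the embryonic WT groups did not, and strain and genotype cannot be told apart in the embryonic knockout comparisons, nor tamoxifen and genotype in those with Villin-Cre. Epithelium at E12 to E16 was sorted for the surface protein Epcam, while that of E18 and adult villi was released with EDTA and not sorted, so stage and isolation cannot be told apart between E16 and E18. The labels give the same isolation for knockout and WT libraries of one stage.

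Cells pass through the cycle as cyclins switch on CDKs in turn: D-type cyclins act in G1, cyclin E with Cdk2 at entry into S phase, and cyclins A and B with Cdk1 up to mitosis. E2F factors drive the genes of DNA replication, and later a complex with Mybl2 and Foxm1 drives the genes of mitosis, while inhibitors such as p21, p27 and p18 hold the kinases back. In the gut, the early epithelium divides throughout, and later most division is kept to the intervillus region and then the crypts, with the villi covered by cells that no longer divide.

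The libraries held 5970227 to 62463167 counts, the median being 21910062. Levels are given as CPM, the counts scaled to a common library total with TMM factors. A gene is called changed where edgeR gave a Benjamini-Hochberg adjusted p below 0.05 over all genes tested and the log2 fold change was at least 1 either way. Cdx2 was read beside the labels. It stood at 17.4, 14.5 and 27.5 CPM in the libraries labelled deleted at E10 against 196 and 218 in WT at E16. In those labelled deleted at E13 it stood at 213 and 217. It was also not lower in those labelled deleted at E15 (388 and 371 against 200 and 206 in WT at E18), nor in the adult libraries labelled knockout (472 and 462 against 242 and 248). Counts over the whole gene cannot show whether its floxed part was deleted. Directions for these last 3 groups are therefore those of libraries so labelled. No source says that replicates came from separate animals, so p-values measure the spread between these libraries. That spread was narrow in WT at E18, where the replicates differed by a chi-square per degree of freedom of 1.53 over genes, against 9.39 in WT small intestine at E16. It was 2.48 and 5.02 in the groups labelled deleted at E13 and E15, and 50.5 to 132 between pairs of those labelled deleted at E10.

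The tissue labels were checked against marker genes. Epcam stood at 726 CPM or more in every WT library at E12 and E14 but at 137 and 112 in E16 forestomach, where the list of 12 mesenchyme and muscle genes took 2.73 and 3.27% of counts and that of 8 red blood cell genes 1.51 and 1.96%. The same lists took 0.901 and 0.937%, and 0.123 and 0.174%, in E16 hindstomach, and 0.16 and 0.178%, and 0.0186 and 0.0192%, in E16 small intestine. In the red blood cell list, 6 to 8 of the 8 genes were at 0 in each embryonic library, and in E16 forestomach Alas2, the first enzyme of haem synthesis in red cells, stood at 13298 and 18234 CPM. Krt5, a keratin of squamous epithelium, stood at 1735 and 1356 CPM in E16 forestomach. The 4 forestomach epithelium genes split there from E14 to E16, with Krt14 (log2 fold change 7.51) and Krt5 (2.08) called higher and Trp63 (-2.48) and Sox2 (-2.16) lower.

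Promoter letters were read for the members by role. RefSeq windows of 300 bases (250 before to 50 after the start, build GRCm38.p6) were held for 36 members, and not for Aurkb, Ccna2, Ccnd1, Ccnd2, Ccne2, Foxm1, Kif20a, Mcm4 and Tpx2. The motifs searched on both strands were the E2F motif (TTTCCCGC, TTTCGCGC, TTTGCCGC or TTTGGCGC), the CHR element found in genes of mitosis (TTTGAA or TTCGAA), and the CCAAT box (CCAAT), each also as its reverse complement, and 1 pair of hits of different motifs overlapped in the members' windows. An E2F motif was in 6 of 12 windows of replication genes, in 1 of 15 of mitosis genes, and in 2.6% of the 27025 genes of the promoter table. A CHR element was in 3 of 12 replication genes, in 12 of 15 mitosis genes and in 21.7% of all genes. CCAAT was in 9 of 12 and 14 of 15 of these sets and in 41.1% of all genes. None of the 3 inhibitor genes held an E2F motif or a CHR element. A match describes the letters only and is not a binding site.

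Shown to set the replication kind of promoter beside the mitotic kind are the 160 bases before the start, 5′ to 3′, with every motif of the search in capitals. The licensing genes Cdc6, Mcm5 and Mcm6 carry E2F motifs, and Mcm5 and Mcm6 also CCAAT boxes (ATTGG on the other strand).
Cdc6 (chr11:98907991-98908150, plus strand): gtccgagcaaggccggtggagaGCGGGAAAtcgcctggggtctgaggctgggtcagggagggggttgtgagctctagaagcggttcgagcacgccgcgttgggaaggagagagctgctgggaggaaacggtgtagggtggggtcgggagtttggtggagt
Mcm5 (chr8:75109349-75109508, plus strand): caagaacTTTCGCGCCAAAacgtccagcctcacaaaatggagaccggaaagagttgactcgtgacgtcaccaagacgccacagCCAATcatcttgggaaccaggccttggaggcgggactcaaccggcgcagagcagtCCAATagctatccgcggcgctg
Mcm6 (chr1:128359706-128359865, minus strand): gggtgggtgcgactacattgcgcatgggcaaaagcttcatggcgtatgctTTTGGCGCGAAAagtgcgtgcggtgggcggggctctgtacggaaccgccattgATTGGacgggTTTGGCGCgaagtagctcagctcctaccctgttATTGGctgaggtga

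The mitotic genes Cdk1, Cdc20, Kif11 and Top2a carry a CHR element close to the start, with CCAAT boxes before or after it, and Cdk1 also an E2F motif further out.
Cdk1 (chr10:69352913-69353072, minus strand): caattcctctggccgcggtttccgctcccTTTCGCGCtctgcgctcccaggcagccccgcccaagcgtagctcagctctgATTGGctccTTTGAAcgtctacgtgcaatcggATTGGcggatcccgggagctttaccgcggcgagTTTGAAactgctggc
Cdc20 (chr4:118437344-118437503, minus strand): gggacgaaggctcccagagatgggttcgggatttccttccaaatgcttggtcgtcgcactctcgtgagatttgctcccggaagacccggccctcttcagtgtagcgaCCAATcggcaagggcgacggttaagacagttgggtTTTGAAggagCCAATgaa
Kif11 (chr19:37376222-37376381, plus strand): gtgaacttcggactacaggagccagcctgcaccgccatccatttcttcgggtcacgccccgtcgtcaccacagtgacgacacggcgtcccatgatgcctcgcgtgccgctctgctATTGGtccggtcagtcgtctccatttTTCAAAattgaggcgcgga
Top2a (chr11:99024190-99024349, minus strand): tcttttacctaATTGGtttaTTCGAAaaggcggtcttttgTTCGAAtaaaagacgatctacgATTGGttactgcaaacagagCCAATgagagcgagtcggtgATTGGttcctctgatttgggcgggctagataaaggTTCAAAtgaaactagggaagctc
The CHR element nearest the start began at position -15 in Cdk1, -18 in Cdc20, -19 in Kif11 and -23 in Top2a, counted from the base before the start as -1.

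In WT epithelium the S phase and mitosis members were high at E12 and E14 and lower at E16 in all 3 organs. The 35 members of these classes took 0.658 to 0.785% of all counts in the 12 libraries of E12 and E14, 0.255 to 0.399% in the 6 WT libraries of E16, and 0.0943 and 0.0934% in the small intestine at E18. These are shares of raw counts. As summed CPM with TMM factors, small intestine stood at 3599 to 3636 at E16 and 1351 to 1355 at E18, a smaller fall. The heat map of all members shows the falls as a block of red that turns blue, with Cdkn1b, Cdkn2c and E2f2 lower at first. In bulk libraries, fewer dividing cells and less of these RNAs per cell cannot be told apart.

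**Figure D1:**
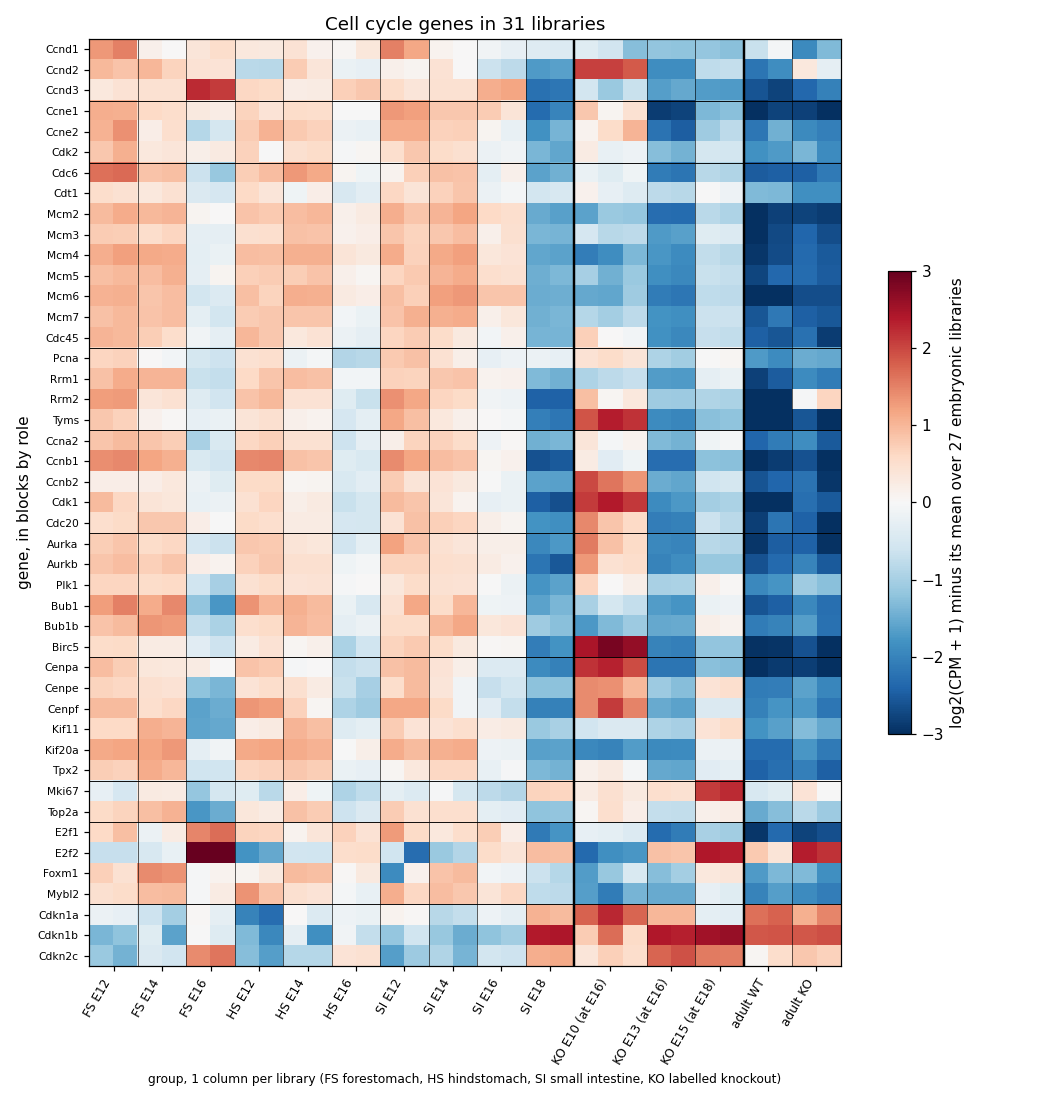
Heat map of the 45 members (vertical axis, in blocks by role) in 31 libraries (horizontal axis, 1 column per library). Colour is log2(CPM + 1) minus the gene's mean over the 27 embryonic libraries, and most members are high at E12 and E14 and low at E18 and in the adult, while Cdkn1b, Cdkn2c and E2f2 are not.

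From E12 to E14 few members changed. In forestomach 1 member fell, against 5.13% of all genes tested called lower, and 0 rose, against 7.58% called higher. In small intestine 1 rose and 1 fell, against 11.3% and 4.89%, and in hindstomach 3 rose and 0 fell, against 10.8% and 6.46%. Ccnd1, a D-type cyclin that partners Cdk4 and Cdk6, stood at 201 and 233 CPM in forestomach at E12 and at 89.4 and 82.2 at E14. In small intestine it stood at 231 and 181 and then 86.8 and 81 CPM, so the stages did not overlap in either organ. The log2 fold changes were -1.34 (SE 0.20, edgeR with Benjamini-Hochberg adjusted p 0.000102) and -1.29 (SE 0.20, adjusted p 0.000127). The hindstomach genes that rose were Cdkn1a, which encodes p21, by 1.98 (SE 0.18), Ccnd2, another D-type cyclin, by 1.39 (SE 0.14), and E2f2 by 1.21 (SE 0.37) on the log2 scale, of which E2f2 lost its call when any 1 of the 4 libraries was left out. Foxm1, a factor for genes of mitosis, was the small intestine gene called higher (log2 fold change 1.49), but its E12 libraries stood far apart at 8.15 and 35.9 CPM against 59.5 and 64.1 at E14. Foxm1 was not called without that lower E12 library (0.79) or without E14 replicate 2 (1.44).

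From E14 to E16 the median of the members lay below that of all genes in each organ. In forestomach 4 of 45 members rose and 21 fell, against 20.8% and 16.9% of all genes, with a median log2 fold change of -0.89 over the members and 0.00 over all genes. In hindstomach 1 rose and 10 fell, against 16.5% and 5.5%, with medians of -0.76 and 0.05. In small intestine 1 rose and 1 fell, against 13.7% and 11.9%, with medians of -0.57 and -0.08, and that count was 3 to 5 in all when any 1 of the 4 libraries was left out, with 5 without E14 replicate 2 or E16 replicate 1. RLE scaling gave member medians of -0.60, -0.63 and -0.41 in forestomach, hindstomach and small intestine, so the order of the stomach regions depends on the scaling. With no minimum on the fold, 34, 37 and 30 members were lower in the 3 organs in that order, against 25.2%, 14.8% and 21.2% of all genes. Markers of other cell types moved over the same step. In forestomach all 6 epithelium genes were called lower (median log2 fold change -1.57), and all 12 mesenchyme and muscle genes (7.62), 10 of 10 immune genes and 5 of 5 endothelium genes higher. In hindstomach 12 of 12 mesenchyme and muscle genes (6.86) and 9 of 10 immune genes were higher with 0 of 6 epithelium genes called, and in small intestine 9 of 12 (2.17) and 5 of 10 were higher with 3 of 6 epithelium genes higher. Their part in the values of the members was not tested.

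Among the replication genes, Mcm5, a subunit of the Mcm2-7 helicase, stood in forestomach at 226 and 238 CPM at E12, 230 and 255 at E14 and 101 and 128 at E16. In hindstomach it went from 199 and 206 through 204 and 221 to 134 and 127, and in small intestine from 189 and 211 through 245 and 263 to 171 and 166. The E16 libraries lay below those of E14 in all 3 organs, and only the forestomach change was called (log2 fold change -1.08, SE 0.13), though RLE scaling gave -0.78 there, under the minimum. Rrm2, a subunit of ribonucleotide reductase, fell more evenly: 316 and 321, 171 and 182, then 101 and 88.5 CPM in forestomach over the same stages. It stood at 240 and 260, 178 and 179, then 102 and 82.3 CPM in hindstomach. In small intestine the values were 343 and 294, 208 and 195, then 123 and 119. E12, E14 and E16 did not overlap in any organ, and E16 against E12 was called for Rrm2 in all 3 (log2 fold changes -1.75, -1.44 and -1.40).

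Over both steps together, E16 against E12 gave 3 members higher and 24 lower in forestomach, against 21.6% and 16.5% of all genes. In hindstomach it gave 4 higher and 16 lower, against 23.2% and 10.5%, and in small intestine 1 higher and 12 lower, against 22.4% and 17.6%. Cdc6, which loads the Mcm2-7 helicase, fell in forestomach from 91.3 and 93.9 to 17.6 and 12.2 CPM (-2.63, SE 0.22), and Cenpf, a kinetochore protein, fell in all 3 organs (-2.54, -2.33 and -1.70). E2f2 was the member that rose in each organ (4.35, 2.40 and 1.81), and in hindstomach all 3 CDK inhibitors also rose, Cdkn1a (1.99), Cdkn1b (1.53) and Cdkn2c, which had 10 and 0 counts at E12 against 72 and 77 at E16. With 1 library at 0, the fitted change of Cdkn2c (4.37) depends on the prior count, and it was 9.29 without E12 replicate 1 and 3.39 without E12 replicate 2. Cdkn1b was not called there without E12 replicate 2 or E16 replicate 1. Marker lists moved as well. In forestomach 5 of 6 epithelium genes were called lower (median log2 fold change -1.89). All 12 mesenchyme and muscle genes (8.44) and all 10 immune genes were higher. The mesenchyme and muscle list took 0.00417 to 0.0115% of counts at E12 and 0.901 to 0.937% at E16 in hindstomach. In small intestine it took 0.0127 to 0.0142% and then 0.16 to 0.178%. The part of these lists in the values of the members was not tested.

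Ccne1, an E-type cyclin of entry into S phase, stood in forestomach at 79.1 and 77.8, 55.2 and 53.3, then 44.6 and 42.9 CPM. In hindstomach it stood at 58.4 and 48.9, 53.4 and 52.6, then 36 and 36.2, and in small intestine at 91.1 and 86.7, 64.2 and 64.3, then 62.2 and 48. Neither step from E12 to E16 was called for it in any of the 3 organs, while its relative Ccne2 fell from E14 to E16 in forestomach (-1.14, SE 0.30) and, at the minimum fold, in hindstomach. Among the mitotic cyclins, Ccnb1, the partner of Cdk1, went from 336 and 346 CPM through 292 and 267 to 92.6 and 85 in forestomach. It went from 349 and 352 through 234 and 228 to 98.5 and 92.8 in hindstomach, and from 341 and 289 through 241 and 232 to 132 and 140 in small intestine. The 3 stages did not overlap in any organ, and the step from E14 to E16 was called in forestomach (-1.66, SE 0.14) and hindstomach (-1.27, SE 0.14).

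Ccna2, the cyclin of S phase and G2, stood in forestomach at 225 and 245, 224 and 211, then 63.7 and 90.5 CPM. In hindstomach it stood at 193 and 207, 174 and 174, then 81.6 and 104, and in small intestine at 143 and 201, 203 and 185, then 113 and 129. E16 was again the lowest stage, and the step from E14 was called in forestomach (log2 fold change -1.50, SE 0.18). The 3 largest falls from E14 to E16 in forestomach were those of Bub1, Kif11 and Top2a. Bub1, of the spindle checkpoint, went from 79.3 and 99.9 to 15.3 and 10.1 CPM, Kif11, a mitotic kinesin, from 141 and 133 to 21.1 and 21.9, and Top2a, the topoisomerase that untangles chromosomes, from 339 and 379 to 54 and 64.3. Their log2 fold changes were -2.82 (SE 0.26), -2.67 (SE 0.13) and -2.60 (SE 0.15), with edgeR Benjamini-Hochberg adjusted p of 4.5e-08, 1.7e-11 and 7.7e-11. The kinetochore and spindle block had 5 of 6 members called lower in forestomach, 4 of 6 in hindstomach and 1 of 6, Kif20a, in small intestine, where 16.9%, 5.5% and 11.9% of all genes were called lower. With no minimum on the fold, 5, 6 and 5 of the 6 were lower in that order, against 25.2%, 14.8% and 21.2% of all genes.

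Whether the step differed between organs was tested as a difference of log2 fold changes. Against small intestine, the forestomach step was lower for 6 members and higher for 3, against 11.4% and 14% of all genes, and the most negative difference was that of Kif11 (-2.47, SE 0.18, edgeR Benjamini-Hochberg adjusted p 6.1e-09). Against hindstomach, the forestomach step was lower for Bub1 (-1.45), Kif11 (-1.36) and Top2a (-1.25) and higher for 3 members, against 7.44% and 4.35%. The hindstomach step differed from that of small intestine for 1 member, Kif11 (-1.11, SE 0.17), against 3.92% called lower, and for 0 members higher, against 9.17%.

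**Figure D2:**
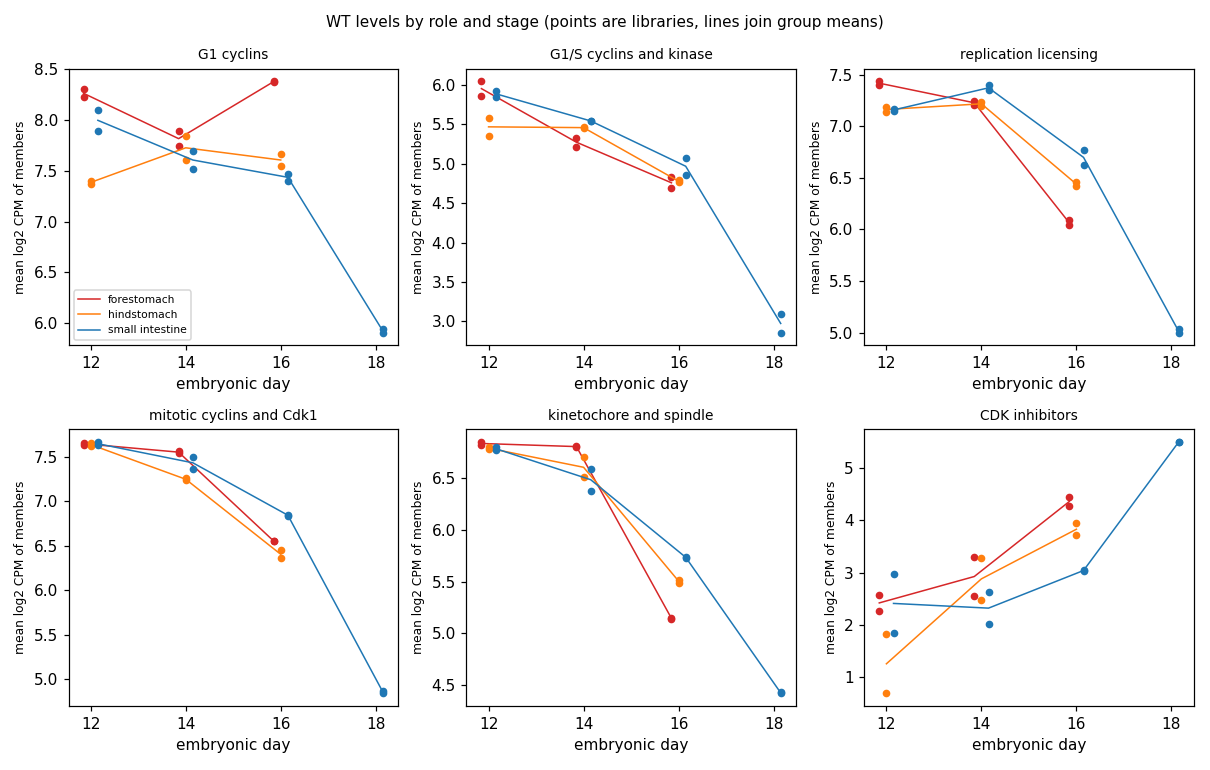
Mean log2 CPM over the members of 6 role groups (vertical axis) by embryonic day (horizontal axis) in WT forestomach, hindstomach and small intestine. Points are single libraries and lines join group means, and the replication and mitosis groups drop at E16 in each organ and further at E18 in small intestine, where the CDK inhibitors are highest.

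The members higher in E16 forestomach than at E14 were E2f2 and E2f1, factors that switch on genes of S phase, Ccnd3, a D-type cyclin, and Cdkn2c, which encodes the inhibitor p18. E2f2 stood at 188 and 284 CPM against 13.4 and 16.3 at E14, above every other embryonic library (3.01 to 106 CPM), with a log2 fold change of 3.99 (SE 0.40, edgeR Benjamini-Hochberg adjusted p 1.2e-07). Ccnd3 went from 184 and 182 to 628 and 572 CPM (1.71, SE 0.14) and E2f1 from 18.6 and 25.6 to 60.2 and 70.1 (1.56, SE 0.25). Cdkn2c went from 1.33 and 1.12 to 7.41 and 8.57 CPM (2.70, SE 0.94), and lost its call when either E14 library or E16 replicate 2 was left out (adjusted p 0.0649 to 0.112 in edgeR with Benjamini-Hochberg adjustment). These are the libraries with the high counts of Alas2 and mesenchyme genes given above, and their part in the 4 rises was not tested. E2f2 was also called higher at E16 than at E14 in small intestine (1.56, SE 0.37) and in hindstomach (1.19, SE 0.36), the latter not when any 1 of the 4 libraries was left out.

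Between organs at one stage the members differed little at E12 and E14. At E14 the calls were 0 of 45 in each of the 3 pairs by edgeR and by DESeq2, against 2.85% and 5.62% of genes called higher and lower for forestomach against hindstomach, 4.66% and 7.29% for forestomach against small intestine, and 3.49% and 3.35% for hindstomach against small intestine. At an unadjusted p under 0.05 these pairs gave 8, 10 and 10 members, against 21.9%, 29.4% and 23.4% of all genes. At E12, Cdkn1a in hindstomach stood at 36.9 and 30 CPM against 132 and 127 in forestomach and 162 and 154 in small intestine. Ccnd2 was at 232 and 229 CPM in E12 hindstomach against 797 and 735 in forestomach. The E12 forestomach had 3 members called higher than hindstomach and 0 lower (2.83% and 4.28% of genes), namely Cdkn1a (1.95, SE 0.18), Ccnd2 (1.73, SE 0.15) and Ccnd1 (1.12, SE 0.20). It had 1 higher than small intestine and 0 lower (5.37% and 4.72%), Cdc6 at 91.3 and 93.9 against 30.2 and 47.3 CPM (1.26, SE 0.20), which was not called without E12 small intestine replicate 1 (0.97). Hindstomach had 0 higher and 2 lower than small intestine (5.6% and 3.67%), Cdkn1a (-2.24, SE 0.19) and Ccnd1 (-1.04, SE 0.20), the latter not called without the same library (-0.86). Both counts against small intestine rose when its E12 replicate 2 was left out.

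At E16, forestomach had 3 members higher and 3 lower than hindstomach (6.27% and 13.8% of genes), and 5 higher and 6 lower than small intestine (18.6% and 16.4%). The higher members were E2f2, Ccnd3 and E2f1 in both, with Cdkn2c and Ccnd2 added against small intestine, and the lowest was Kif11 in both (log2 fold changes -1.25 and -1.86). Against hindstomach, Bub1 (-1.16) and Top2a (-1.09) were under the minimum fold with RLE scaling (-0.96 and -0.89), and E2f1 (1.02) without forestomach replicate 2 or hindstomach replicate 2 (0.91 and 0.89). Against small intestine, E2f1 (1.10) lost its call without forestomach replicate 2 (0.98) or small intestine replicate 2 (0.84). Ccnd3 (1.02) lost it without forestomach replicate 1 (0.95) or small intestine replicate 1 (0.98). Cdkn2c (2.86) lost it without forestomach replicate 2 or either small intestine library. The balance of directions depends on the processing. Against small intestine DESeq2 gave 6 higher and 5 lower. Against hindstomach the median log2 fold change of the members was -0.08 with TMM and 0.12 with RLE scaling. Hindstomach against small intestine gave 0 calls by edgeR and by DESeq2, against 17.5% and 8.1% of genes, with 22 of 45 members at an unadjusted p under 0.05, against 47.2% of all genes. Marker lists also differed between these libraries. The epithelium list took 0.0862 to 0.0981% of counts in forestomach, 0.648 to 0.681% in hindstomach and 0.864 to 0.881% in small intestine. The mesenchyme and muscle list took 2.73 to 3.27%, 0.901 to 0.937% and 0.16 to 0.178% in that order. The part of these lists in the values of the members was not tested.

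From E16 to E18 the small intestine had lower levels of most members. Of 45 members 33 fell and 4 rose, against 22.1% and 20.1% of all genes, with a median log2 fold change of -1.56 over the members and -0.05 over all genes. All 6 mitotic kinase and checkpoint genes, all 5 mitotic cyclin and Cdk1 genes and 8 of 9 licensing genes fell. Ccnb1 went from 132 and 140 to 20.1 and 21.4 CPM, Ccne1 from 62.2 and 48 to 6.57 and 8.45, and Mcm5 from 171 and 166 to 43.1 and 46.8. No library of one stage reached the range of the other for these genes. The largest fall was that of Ccnd3, from 285 and 305 to 27.7 and 28.8 CPM (log2 fold change -3.38, SE 0.15, edgeR Benjamini-Hochberg adjusted p 1.5e-12). Ccnd1 (75 and 67.6, then 61.5 and 60.8 CPM) and Ccnd2 (259 and 236, then 126 and 131) were not called. Over the same step 12 of 12 mesenchyme and muscle genes were called lower (median log2 fold change -10.50), as were 4 of 5 endothelium genes and both tested red blood cell genes, and of 10 immune genes 2 were higher and 4 lower. Their part in the values of the members was not tested.

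The 3 CDK inhibitors and Mki67 rose at E18. Cdkn1b, which encodes p27, was at 3.27 and 3.82 CPM at E16 and at 50.5 and 52.2 at E18, a log2 fold change of 3.85 (SE 0.59, edgeR Benjamini-Hochberg adjusted p 1.7e-05), and its range over the WT libraries of E12 to E16 was 1.59 to 8.8 CPM. Cdkn1a went from 135 and 124 to 309 and 292 CPM. Cdkn2c went from 1.16 and 1.04 to 5.75 and 5.98 CPM (2.41, SE 0.93) and was not called when any 1 of the 4 libraries was left out (edgeR Benjamini-Hochberg adjusted p 0.0812 to 0.136). Mki67, whose protein Ki-67 coats mitotic chromosomes and is the usual stain for dividing cells, rose from 70.2 and 65.6 to 194 and 191 CPM (log2 fold change 1.50, SE 0.20) while Top2a was at 148 and 144 and then 78.9 and 79.6 CPM and was not called (-0.88). Mki67 was the only 1 of the 35 S phase and mitosis members called higher, against 30 called lower.

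The rest of the pathway was read from lists of genes that are not members. From E16 to E18, 22.1% of all genes were called lower and 20.1% higher. Of 30 other replication genes 22 fell and 0 rose over that step, the largest fall being Gins2 (-2.85), and of 44 other mitosis genes 33 fell and 1, Hjurp, rose (3.08). Of 24 other G1 regulators that were tested, 9 fell and 4 rose, with Cdkn1c, the inhibitor p57, at -5.86. In the step from E14 to E16, 17, 10 and 6 of the 30 replication genes fell in forestomach, hindstomach and small intestine and 0 rose, against 16.9%, 5.5% and 11.9% of all genes called lower. Of the 44 mitosis genes 30, 19 and 5 fell, the last a share near that of all genes, and 3 rose in forestomach, led by Cdc25b (4.26), and 1 in hindstomach. At E16, 4 of the 44 were higher in forestomach than in hindstomach and 6 lower (median log2 fold change -0.26), against 6.27% and 13.8% of all genes. Against small intestine 4 were higher and 7 lower (-0.42), against 18.6% and 16.4%. The shares called lower were near those of all genes in both pairs. The summed level of the 44 stood at 2981 and 3335 CPM in forestomach, 1819 and 1897 in hindstomach and 2236 and 2223 in small intestine, and Cdc25b was the highest of the genes called higher in both (2.84 and 4.87).

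The libraries labelled deleted at E10, the group with low Cdx2, had members both higher and lower. Of 45 members 11 were higher and 11 lower than in WT at E16, against 23.9% and 27.6% of all genes, so the share of members called was close to that of genes at large. The S phase and mitosis members took 0.308 to 0.361% of raw counts, below the 0.391 to 0.399% of WT at E16. Their summed CPM with TMM factors was 5096 to 5678, above the 3599 to 3636 of WT. The direction of their summed level thus depends on the scaling. The helicase subunits Mcm2 to Mcm7 were all lower, as were Ccnd3, E2f2, Mybl2, Bub1b and Kif20a, while Ccnd2, Tyms, Cdk1, Ccnb2, Birc5, Cenpa, Cenpe, Cenpf, Mki67, Cdkn1a and Cdkn1b were higher.

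Ccnd2 stood at 1684, 1695 and 1477 CPM in the 3 libraries against 259 and 236 in WT at E16, above the 88.4 to 814 CPM of all the other libraries (log2 fold change 2.71, SE 0.15, edgeR Benjamini-Hochberg adjusted p 1.1e-11). Birc5, the survivin subunit of the chromosomal passenger complex, stood at 680, 890 and 766 against 127 and 128 CPM (2.61, SE 0.14), and Cenpa, the histone of centromeres, at 361, 401 and 313 against 59.9 and 59.8 (2.58, SE 0.12). Genes were named as the largest changes only where the groups did not overlap, so that is no separate result for these 3. Mcm6 stood at 81.6, 81 and 114 CPM against 425 and 424 (-2.21, SE 0.12). Mybl2, the B-Myb factor of mitotic genes, stood at 7.61, 5.37 and 9.39 against 34.7 and 40.8 (-2.35, SE 0.20), and E2f2 at 3.01, 4.61 and 5.06 against 28.8 and 25.2 (-2.70, SE 0.36). Mcm3 (-1.03) and Mcm7 (-1.13) lay near the minimum and were not called under RLE scaling.

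Mcm5 was at 60, 44.3 and 55.8 CPM against 171 and 166 and was called lower, but Rrm2 was at 246, 138 and 163 against 123 and 119, Ccnb1 at 152, 100 and 117 against 132 and 140, and Ccne1 at 64.1, 38.8 and 50.5 against 62.2 and 48, none of them called. Ccna2 was at 161, 120 and 136 CPM against 113 and 129, and Ccnd1 at 62.3, 54.1 and 32.7 against 75 and 67.6. The inhibitor Cdkn1a stood at 516, 727 and 502 CPM against 135 and 124, Cdkn1b at 15.8, 30.4 and 13.7 against 3.27 and 3.82, and Cdkn2c at 3.07, 4.19 and 3.58 against 1.16 and 1.04. Cdkn1a (2.16) and Cdkn1b (2.49) were called and Cdkn2c was not. Mki67 was at 146, 171 and 151 CPM against 70.2 and 65.6 (1.20, SE 0.18).

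Among the other genes of the pathway, 15 of 30 replication genes were higher in these libraries and 4 lower, with Gins1 at 2.95 and Uhrf1 at -2.56, and 17 of 44 mitosis genes were higher and 3 lower, with Cks1b at 3.33 and Ncapd2 at -1.67, against 23.9% of all genes higher and 27.6% lower. The list of 5 hindstomach epithelium markers (Cldn18 among them) took 0.272, 0.555 and 0.247% of counts here against 0.000541 and 0.000485% in WT small intestine at E16. All 4 forestomach epithelium genes were also called higher (median log2 fold change 9.01). Called lower were 4 of 5 small intestine genes (-4.31), 9 of 12 mesenchyme and muscle genes (-2.64), 4 of 6 enteric nerve genes (-4.00), 3 of 5 endothelium genes, 3 of 10 immune genes and both tested red blood cell genes (-5.12). The part of these lists in the cell cycle values was not tested. The 50 fullest genes took 24.8 to 28.1% of counts in these 3 libraries, against 10.7 and 10.8% in the WT libraries.

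The libraries labelled deleted at E13, in which Cdx2 was not lower, had 34 of 45 members lower than WT at E16 and 4 higher, against 20.8% and 18.7% of all genes, with a median log2 fold change of -1.80 over the members and -0.05 over all genes. The lowest were Ccne1 at 4.17 and 4.42 CPM against 62.2 and 48 (-3.68, SE 0.21, edgeR Benjamini-Hochberg adjusted p 4.3e-11), E2f1 at 3.47 and 4.19 against 36.2 and 24.6 (-2.99, SE 0.27) and Mcm6 at 55.3 and 52.1 against 425 and 424 (-2.98, SE 0.14). All 5 mitotic cyclin and Cdk1 genes and 8 of 9 licensing genes were lower. The members called higher were Cdkn1b (51.4 and 48.8 CPM), Cdkn2c (9.63 and 10.8), Cdkn1a (302 and 298) and Mki67 (174 and 167), of which Cdkn2c was not called without either WT library (edgeR Benjamini-Hochberg adjusted p 0.0502 and 0.0583). The groups did not overlap for any of the 45 members, nor for 81.9% of all genes.

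These levels stand beside those of WT at E18, which was compared with the same E16 WT libraries. Ccnb1 was at 25.3 and 25.3 CPM here and at 20.1 and 21.4 in WT at E18, Ccna2 at 49.8 and 46.1 against 45.9 and 47.9, and Mcm5 at 33.3 and 31.1 against 43.1 and 46.8. Rrm2 was at 62 and 61.6 against 23.7 and 23.7, Ccnd1 at 35 and 34.6 against 61.5 and 60.8, and Ccnd2 at 111 and 112 against 126 and 131. The S phase and mitosis members took 0.0898 and 0.087% of counts, near the 0.0943 and 0.0934% of WT at E18 and below the 0.391 and 0.399% of WT at E16, although the label gives E16 as the day of sampling. The list of 5 small intestine markers took 0.258 and 0.254% of counts, against 0.224 and 0.222% in WT at E16 and 0.614 and 0.609% at E18, and 2 of the 5 were called higher and 1 lower than at E16. The list of 5 hindstomach markers took 0.231 and 0.224% here and 0.000541 and 0.000485% in WT at E16. Of the mesenchyme and muscle list 12 of 12 genes were called lower than in WT at E16 (median log2 fold change -5.73), as were 4 of 5 endothelium genes. The part of these lists in the cell cycle values was not tested.

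The libraries labelled deleted at E10 and at E13 share a strain background and a labelled day of sampling, and were also compared with each other. They differ in Cre (Shh-Cre against Villin-Cre), in tamoxifen (none against 5 mg) and in Cdx2 level, which cannot be told apart from the day of deletion. Of 45 members 26 were higher after E10 and 2 lower, against 28.1% and 29.3% of all genes, with a median log2 fold change of 1.29. Of the marker lists, 4 of 4 forestomach epithelium genes (median log2 fold change 8.25), 7 of 12 mesenchyme and muscle genes and 5 of 10 immune genes were also higher, while 1 mesenchyme, 3 immune and 4 of 5 small intestine genes (-4.46) were lower. Their part in the values of the members was not tested. The largest were Birc5 (4.73, SE 0.16), Cenpa (4.42, SE 0.14) and Tyms, thymidylate synthase (4.11, SE 0.15), and those lower were E2f2 (-3.10, SE 0.36) and Cdkn1b (-1.33, SE 0.47). Cdkn1b lost its call without replicate 1 or 3 of the E10 group or without either replicate of the E13 group (edgeR Benjamini-Hochberg adjusted p 0.0528 to 0.0679), and with the replicate number as a block (-1.08, adjusted p 0.0712).

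**Figure D3:**
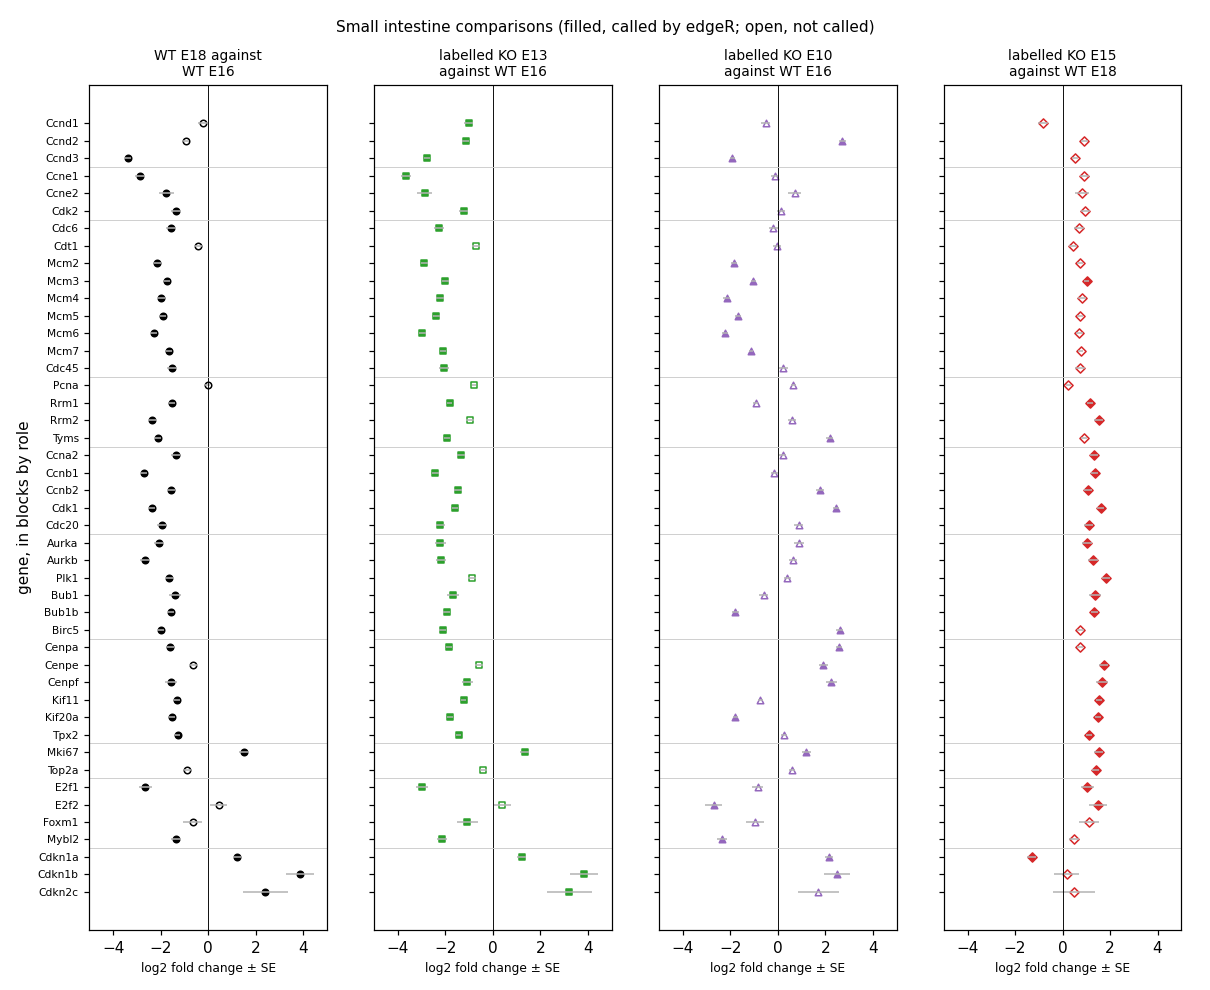
Log2 fold change with its SE (horizontal axes) of the 45 members (vertical axis, in blocks by role) in 4 comparisons of small intestine, the first 3 of which share the 2 WT libraries of E16 as controls. Filled symbols are called by edgeR, and 33 and 34 members are called lower in the 2 panels on the left (22.1% and 20.8% of all genes). In the third 11 are lower and 11 higher (27.6% and 23.9%), and in the panel on the right 1 is lower and 22 are higher (9.7% and 7.79%).

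The libraries labelled deleted at E15 and sampled at E18 had more cell cycle RNA than WT at E18. Of 45 members 22 were higher and 1 lower, against 7.79% and 9.7% of all genes, with a median log2 fold change of 1.01 over the members and 0.00 over all genes. By group, all 5 mitotic cyclin and Cdk1 genes, 5 of 6 kinase and checkpoint genes, 5 of 6 kinetochore and spindle genes, both chromosome genes, 2 of 4 fork and nucleotide genes, 2 of 4 transcription factors, 1 of 9 licensing genes and 0 of 3 in each of the G1 cyclin and G1/S groups were higher. With no minimum on the fold 37 of 45 members were higher, against 16.5% of all genes, among them 9 of 9 licensing genes (median log2 fold change 0.73) and 2 of 3 G1/S genes, and no difference between the groups was tested. Plk1, a mitotic kinase, stood at 83.1 and 77.7 CPM against 21.5 and 24.2 (1.81, SE 0.17, edgeR Benjamini-Hochberg adjusted p 2.0e-07), Cenpe, a kinetochore motor, at 75.4 and 79.9 against 23.5 and 23.4 (1.73, SE 0.19), and Cenpf at 44.3 and 44.7 against 14.1 and 14.2 (1.65, SE 0.25). That the groups did not overlap was a condition for naming these genes as the largest changes.

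Ccnb1 was at 53.5 and 53.1 CPM against 20.1 and 21.4, Ccna2 at 115 and 121 against 45.9 and 47.9, and Rrm2 at 69.5 and 67.9 against 23.7 and 23.7, all called higher. Mki67 was at 527 and 583 CPM against 194 and 191 (1.53, SE 0.19), the highest values for this gene in any of the 31 libraries. Mcm5 (76.4 and 73.4 against 43.1 and 46.8), Ccne1 (13.8 and 14.6 against 6.57 and 8.45), Ccnd2 (240 and 248 against 126 and 131) and Ccnd1 (35.4 and 33.3 against 61.5 and 60.8 CPM) were not called. The member called lower was Cdkn1a, at 123 and 121 CPM against 309 and 292 (-1.30, SE 0.18), while Cdkn1b (56 and 59.4 against 50.5 and 52.2) and Cdkn2c (8.27 and 8.14 against 5.75 and 5.98) were not called.

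Of the other genes of the pathway, 34 of 44 mitosis genes were higher and 0 lower, with Anln at 2.06. Of 30 replication genes 8 were higher and 0 lower, with Dbf4 at 1.43. Of all genes 7.79% were called higher and 9.7% lower. Ptprc, the pan-leukocyte gene, stood at 197 and 201 CPM in WT at E18 and at 6.41 and 7.26 in these libraries, and the list of 10 immune genes took 0.0269% in both WT libraries against 0.000946 and 0.00103%. The list of 5 small intestine markers took 0.256 and 0.251% of counts here against 0.614 and 0.609% in WT, but 1 of the 5, Vil1 (-1.90), was called lower and their median log2 fold change was 0.36. Of the hindstomach epithelium list 4 of 5 genes were called higher (median 6.60), and 5 of 10 immune and 2 of 6 enteric nerve genes were called lower. The part of these lists in the cell cycle values was not tested.

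In adult ileum villi few members differed. Of 45 members 3 were higher in the libraries labelled knockout and 1 lower, against 8.41% and 12% of the 12444 genes tested, with a median log2 fold change of 0.18 over the members and 0.01 over all genes. Rrm2 stood at 129 and 205 CPM, far over the 9.32 and 9.92 of the WT pair (log2 4.11, SE 0.28, edgeR Benjamini-Hochberg adjusted p 0.00241). Its partner subunit Rrm1 was at 41.4 and 36.1 against 21.5 and 27.1. That change was under the minimum fold (0.68, SE 0.17, edgeR Benjamini-Hochberg adjusted p 0.0392). Ccnd2 was at 510 and 339 against 88.4 and 112 CPM (2.09, SE 0.26), and E2f2 at 103 and 89.3 against 34 and 25.3 (1.70, SE 0.19). Groups that did not overlap were a condition for naming these 3 genes as the largest changes.

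Ccnd1 was at 20.8 and 32 CPM against 51 and 77.8 (-1.29, SE 0.31), and it was not called without WT replicate 2 (-0.96) or without knockout-labelled replicate 1 (-0.97) or 2 (-1.62). The other members given in full had low and overlapping or close values: Ccnb1 at 20.1 and 11.8 against 12 and 16.7 CPM, Ccna2 at 33.8 and 20.9 against 23.5 and 28.8, Mcm5 at 23.5 and 20.8 against 17.2 and 22.8, and Ccne1 at 4.35 and 2.93 against 2.44 and 4.48. Mki67 was at 162 and 122 against 87.6 and 95.3 CPM and was under the minimum fold (0.63, SE 0.17, edgeR Benjamini-Hochberg adjusted p 0.0477). Cdkn1a was at 314 and 417 against 474 and 512, Cdkn1b at 34.6 and 36.6 against 34.8 and 35.4, and Cdkn2c at 4.51 and 4.14 against 2.31 and 3.57 CPM. In the other lists, 1 of 30 replication genes was higher and 1 lower, and 0 of 44 mitosis genes were higher and 1 lower, against 8.41% and 12% of all genes. Ptprc stood at 3.81 and 3.35 CPM against 20.9 and 47.2 CPM in WT. All 5 tested genes of the immune list were called lower (median log2 fold change -3.28), and all 4 tested hindstomach epithelium genes higher (6.48). The part of these lists in the values of the members was not tested.

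**Figure D4:**
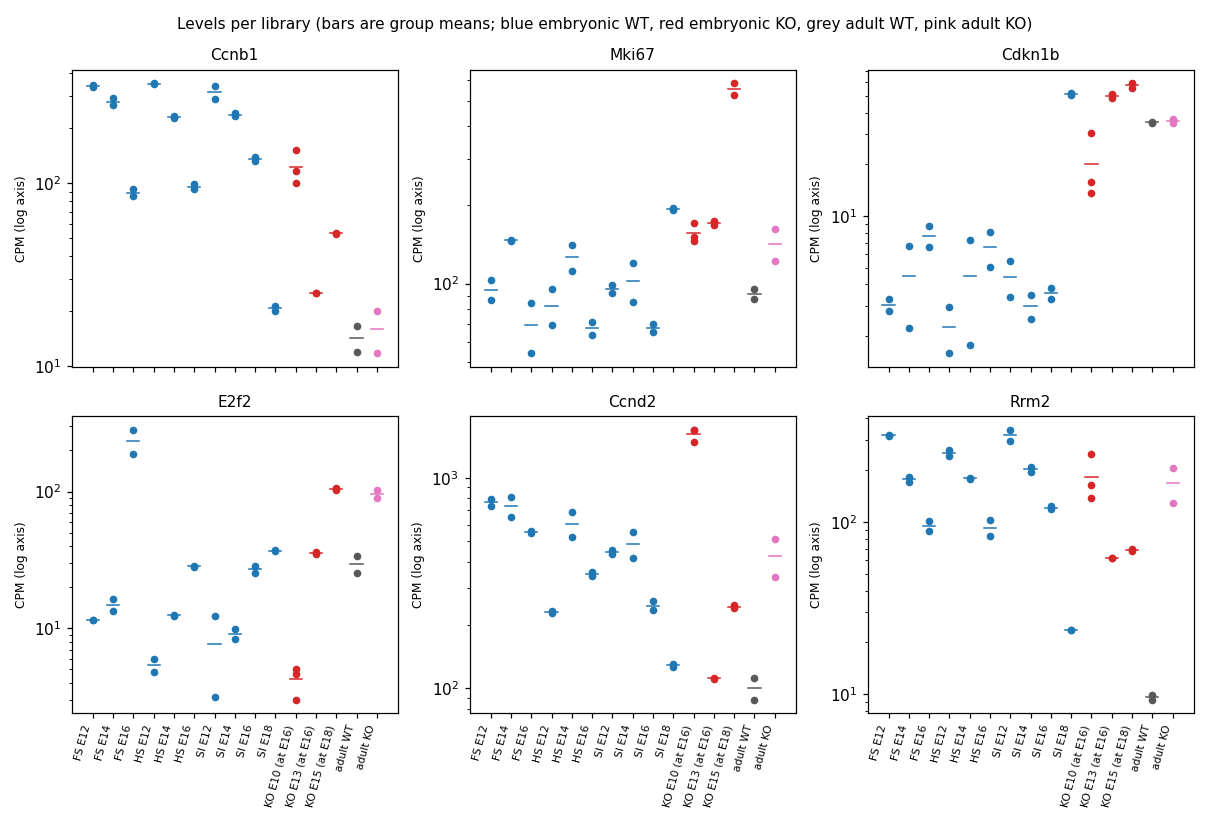
CPM on a log axis (vertical) of Ccnb1, Mki67, Cdkn1b, E2f2, Ccnd2 and Rrm2 in each library by group (horizontal axis), with bars at group means. Ccnb1 falls with stage, while Mki67 is highest in the libraries labelled deleted at E15 (527 and 583), E2f2 in E16 forestomach (188 and 284), Ccnd2 in those labelled deleted at E10, and Rrm2 in the adult differs between 9.32 and 9.92 in WT and 129 and 205 in the libraries labelled knockout.

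The members did not all vary together over the 27 embryonic libraries. Pearson's correlation of a member's log2 CPM with the mean of the other 44, a description only since the libraries share stages and groups, was 0.8 or more for 21 members, led by Cdc45 and Ccnb1 (0.96 each), and below 0.5 for 6. It was negative for Cdkn1b (-0.81), Cdkn2c (-0.76), E2f2 (-0.57), Cdkn1a (-0.48) and Mki67 (-0.38). In the 20 WT libraries alone these 5 values were -0.86, -0.74, -0.61, -0.60 and -0.25. E2f2 thus stood apart from its relative E2f1 (0.76), and Mki67 from Top2a (0.74).

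Not yet given in full at the early stages are the inhibitors, Mki67 and 2 D-type cyclins. Mki67 stood in forestomach at 103 and 86.5, 147 and 146, then 54.2 and 84.5 CPM at E12, E14 and E16. In hindstomach it stood at 95 and 69.3, 141 and 112, then 63.5 and 71.3, and in small intestine at 99.1 and 91.8, 120 and 85, then 70.2 and 65.6. It was highest at E14 in both stomach regions, and E12 and E14 overlapped in small intestine. Cdkn1a stood at 132 and 127, 96.9 and 73.3, then 155 and 124 CPM in forestomach over these stages. It was at 36.9 and 30, 152 and 112, then 135 and 130 in hindstomach, and at 162 and 154, 83.9 and 90.4, then 135 and 124 in small intestine. The E12 hindstomach values were the lowest of any library. Cdkn1b lay between 1.59 and 8.8 CPM and Cdkn2c between 0 and 8.57 in all WT libraries of E12 to E16. Ccnd2 was at 814 and 654 CPM in E14 and 556 and 546 in E16 forestomach, at 691 and 522 and then 356 and 343 in hindstomach, and at 454 and 434 at E12, 553 and 414 at E14 and 259 and 236 at E16 in small intestine. Ccnd1 at E16 was at 104 and 118 in forestomach, and at E12, E14 and E16 in hindstomach at 101 and 99.2, 110 and 89.2, then 84.9 and 103 CPM, with overlap between stages.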

How the data were processed

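RNA libraries of mouse embryonic gut epithelium and adult ileum (31 of the 74 samples) were analysed. Another 38 samples (ATAC-seq) and 5 (ChIP-seq) were not used here. The values are read counts per gene symbol as the authors deposited them, not normalized. STAR 2.5.3a, HTSeq and mm9 are named in the submitters' processing notes without role. Strand setting and annotation are not given in the sources used here, so overlapping or antisense genes may share reads. Adult columns were blank at Stk33 and Txndc2 and were closed up over these cells before use. Spearman's rho with WT at E18 over the 3407 genes below the blanks was 0.383 to 0.391 as deposited and 0.943 to 0.968 after, and 3 members lie there. 2 columns that match no sample were not used. Groups and replicate numbers came from sample titles.

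edgeR 4.0.16 in R 4.3.3 (TMM, filterByExpr with minimum count 10, glmQLFit and glmQLFTest, Benjamini-Hochberg over all genes) was fitted to 27 embryonic libraries in 13 groups (17239 genes) and apart to 4 adult libraries (12444 genes), since the kits differed. SEs are log2 fold changes divided by the square root of F. Same-numbered replicates did not vary together (r -0.04 to 0.10 over genes). DESeq2 1.42.0, RLE scaling, no low-count filter, no fold minimum, only the groups compared, a replicate block and leaving out each library were tried. In simulated counts with 4-fold changes, 200 of 200 genes were recovered with 9 false calls of 16126 (small intestine E16 against E14), and 198 of 200 with 8 of 12221 (adult). The changed genes there were well counted and moved equally up and down, with a fixed dispersion and groups otherwise alike. The recovery thus does not cover smaller changes, genes with few counts or libraries of unlike composition. Mean levels use a prior count of 2, with 0.5 and RLE as alternatives. All 31 libraries in one fit were tried for the adult. The members and lists were chosen with earlier results of these data known. Genes named were 11 members in every group, the 3 largest called changes per direction whose groups did not overlap and whose mean log2 CPM was at least 2, and members called against the majority, with at most 2 genes for each other list. Rrm1 in the adult and the relatives of a gene named for contrast (Ccne2, Top2a, E2f1) were chosen after their values were seen. Motif counts used RefSeq promoters.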

Additional observations from a re-analysis of the deposited data

Results flagged for a closer look

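The step from E14 to E16 was tested gene by gene for a difference between organs (edgeR interaction contrast), and 16 gene values passed. The counts of members were not themselves tested. Against small intestine, the forestomach step differed for 9 members of 45, where 11.4% of all genes were called lower and 14% higher: Kif11 (-2.47), Bub1 (-1.86), Top2a (-1.78), Bub1b (-1.48), Cenpf (-1.35) and Cenpe (-1.02) fell further, and Ccnd3 (1.03), E2f1 (1.49) and E2f2 (2.43) had higher values, all as differences of log2 fold changes. Ccnd3 was at 0.96 without E16 forestomach replicate 1 and 0.99 without E16 small intestine replicate 1, under the minimum. Against hindstomach it differed for 6 members (7.44% and 4.35% of all genes): Bub1 (-1.45), Kif11 (-1.36), Top2a (-1.25), Ccnd3 (1.20), E2f1 (1.23) and E2f2 (2.80). E2f1 was not called there without E14 forestomach replicate 1, E14 hindstomach replicate 2, or replicate 2 of E16 forestomach or hindstomach, with values of 1.01 to 1.11. Between hindstomach and small intestine 1 member differed, Kif11 (-1.11), against 3.92% and 9.17% of all genes. The E16 forestomach libraries hold the blood and mesenchyme counts given above, and the part of these in the differences was not tested.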

How the results depend on the processing

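Of 142 named gene values, 0 changed sign under the alternatives run and 14 lost their call under one other than leaving out a library. Without the fold minimum the counts of members called rose, beside the share of all genes called by the same rule, to 16 (25.3%) and 39 (51.3%) in forestomach for E14 against E12 and E16 against E14. In hindstomach they rose to 16 (31.2%), 39 (35.3%) and 39 (50.1%) for E14 against E12, E16 against E14 and E16 against E12, and in small intestine to 15 (29.9%), 33 (40.8%) and 36 (55.6%). The groups labelled deleted at E10, at E15 and in the adult gave 37 (63.1%), 39 (30.4%) and 9 (34.5%). Between organs they became 4 (16.4%) and 8 (14.8%) at E12 for forestomach and hindstomach against small intestine. For forestomach against hindstomach, and forestomach and then hindstomach against small intestine, they were 1 (11.7%), 6 (18.2%) and 4 (11.3%) at E14 and 18 (32.9%), 28 (47.9%) and 16 (38.6%) at E16. The forestomach step against that of small intestine and hindstomach gave 20 (31.7%) and 10 (16.1%). This follows from the dropped minimum. DESeq2 gave 2 in forestomach E14 against E12, 2 in forestomach against small intestine at E12, and 11 there at E16, with the majority turned from lower to higher (6 higher and 5 lower). Fits of only the groups compared gave 1 for small intestine E14 against E12, 0 for forestomach and 1 for hindstomach against small intestine at E12, from fewer libraries. The replicate block gave 2 for forestomach against small intestine at E12. Numbers did not pair libraries, and the block ended the calls of Cdkn1b (E10 against E13) and Mcm3 (E10 against WT, -0.98). Mean log2 CPM of the S phase and mitosis members changed under RLE scaling by -1.13, -0.90 and -0.65 from E12 to E16 in forestomach, hindstomach and small intestine, and by -1.56 from E16 to E18. The all-gene median shifted with RLE by 0.26 in forestomach E16 against E14 (0.19 for E16 against E12 and for forestomach against small intestine at E16, 0.15 against hindstomach), and the calls there became 5 higher and 17 lower, with 67.6% of all calls higher in place of 55.2%. Members called in forestomach against hindstomach at E16 became 4 higher and 1 lower, those labelled E10 against WT 13 and 9, and those labelled E15 against WT 16 and 1. Calls across all genes in forestomach became 68.6% higher in place of 56.6% for E16 against E12, 43.5% in place of 31.2% against hindstomach at E16, and 50.5% in place of 36.9% for the step against that of hindstomach.

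Leaving out one library at a time gave 1 to 2, 21 to 25 and 28 to 29 members in forestomach (E14 against E12, E16 against E14, E16 against E12), 2 to 3, 9 to 13 and 16 to 21 in hindstomach, and 1 to 3, 3 to 5, 12 to 15 and 36 to 37 in small intestine with E18 last. Organ pairs gave 3, 1 to 3 and 1 to 4 at E12, 0 in each at E14, and 4 to 7, 9 to 11 and 0 to 1 at E16. The labelled groups gave 22 to 24 (E10), 34 to 37 (E13), 21 to 24 (E15), 27 to 28 (E10 against E13) and 3 to 4 (adult), and the steps 8 to 11, 1 and 5 to 8. Counts moved by over 1.5 times in forestomach E14 against E12 (2 without E12 replicate 1), in small intestine E14 against E12 (1 without E14 replicate 2) and E16 against E14 (5 without E14 replicate 2 or E16 replicate 1), and at E12 in forestomach and hindstomach against small intestine (3 and 4 without small intestine replicate 2). Few counts limit the precision of Cdkn2c at E12, with 0 to 15 in those libraries.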

Other observations

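The replication-dependent histone genes (symbols starting with Hist), made mainly in S phase and not among the members, were read after the data were seen. They took 0.072 to 0.097% of counts in the 3 libraries labelled deleted at E10, against 0.0077 to 0.031% in the other 24 embryonic libraries and 0.011 and 0.012% in WT small intestine at E16. No test was made.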
